A study of Mus musculus with 47 samples.

Results

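The genes described here are 44 protein-coding genes of the cell cycle, taken by gene symbol from a table of read counts for 38215 mouse genes. They were chosen as a list by their known roles and were followed across all 16 groups of the study, 47 libraries in all. The list falls into 22 genes of DNA replication, 7 genes that control the passage from G1 into S phase, and 15 genes of mitosis. Each of the 44 symbols matched 1 gene, and all 44 passed the filter on low counts. The lowest count of any of these genes in any library was 107 reads.

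Cells enter S phase when D-type cyclins with their kinases, and then cyclin E, inactivate the retinoblastoma protein and free E2F factors, which switch on genes of the replication machinery. Origins are marked in G1 by the origin recognition complex, which with Cdc6 and Cdt1 loads the Mcm2 to Mcm7 helicase. The helicase is then activated with the Gins complex, and DNA is copied by polymerases held by the sliding clamp Pcna. Mitotic genes such as cyclin B, Cdk1 and Plk1 are transcribed later, from late S phase to mitosis, and many of them are kept off in G1 by a repressor complex that sits on CHR elements of their promoters. Cranial neural crest cells are a migratory population that leaves the dorsal neural tube and divides as it fills the facial processes and pharyngeal arches, so the level of these genes in a bulk sample reflects the mixture of cycling states in it. In such samples fewer cycling cells and less RNA per cycling cell cannot be told apart.

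The study measured total RNA of sorted mouse cranial neural crest cells. The earliest group was wild-type progenitors at embryonic day 8.5 (E8.5, 3 libraries). Wild-type cells of 4 subpopulations, from the frontonasal process (FNP), the second pharyngeal arch (PA2), the mandibular process (Md) and the maxillary process (Mx), were collected at E10.5 (3 libraries each, but 2 for Mx) and at E11.5 (3 each). At E10.5 the same 4 subpopulations were also collected from Ezh2cKO embryos, a conditional knockout of the histone H3 lysine methyltransferase Ezh2 (3 libraries each), and Md cells from HoxA2OE embryos, which overexpress Hoxa2 (3). At E11.5 PA2 cells came in addition from Hoxa2TempMut embryos, a temporal knockout of Hoxa2 (3), and from embryos labelled Control (3). The labels name neither the Cre driver, nor the alleles, nor what the Control embryos carry. They also do not say whether replicates came from separate embryos or litters, so the p-values cover only the spread between libraries, which may be technical.

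The libraries held between 18.8 and 49.8 M counted reads (M, 1000000), with a median of 30.6 M. Of these, 4 libraries stood apart from the others of their group: E8.5 library 1, E10.5 FNP library 1, HoxA2OE library 1 and E11.5 FNP library 3. The measure was a chi-square over genes per degree of freedom, taken for each pair of libraries within a group. Pairs with these 4 libraries gave 42.3 to 331 and all other pairs 3.53 to 32.7. The cut between these ranges was set after seeing the data, and no p-value was computed. The main comparisons of stages, subpopulations and genotypes were repeated without these 4 libraries, and such values are given for part of the results. The F tests, and the changes of stage or Ezh2cKO within each subpopulation, were run only with them in. The HoxA2OE libraries were the most different in composition. Mitochondrial genes took 45.9%, 28.5% and 28.5% of their reads, against 19.9% to 24.0% in wild-type Md, and their scaling factors were 0.514, 0.775 and 0.765. The targeted genes followed the labels in part. Ezh2 was at 350 to 405 counts per 1000000 reads (CPM) in all 11 wild-type E10.5 libraries and at 113 to 157 CPM in the 12 Ezh2cKO libraries. Hoxa2 was at 0.270 ± 0.0251 CPM (SD, n = 3) in wild-type Md and at 110 ± 15.9 CPM (n = 3) in HoxA2OE. In PA2 at E11.5, Hoxa2 was at 269 ± 0.794 CPM in Control, 185 ± 9.49 CPM in Hoxa2TempMut and 192 ± 8.11 CPM in wild type (n = 3 each), so the library set labelled Hoxa2TempMut was lower than Control but near wild type. The summed level of 8 mesenchyme markers of the cranial crest was 1217 to 1790 CPM in wild-type cells of E10.5 and 214 to 292 CPM in the E8.5 progenitors.

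The promoters of the replication and mitosis genes carried different short motifs, which are shown because the 2 lists are compared throughout. RefSeq promoter sequences (GRCm38.p6, from 250 bases before to 50 bases after the gene start) were matched by symbol for 34 of the 44 genes: 17 of replication, 4 of G1 to S control and 13 of mitosis. An E2F-type motif, searched on both strands as TTTCCCGC, TTTCGCGC, TTTGCCGC or TTTGGCGC, lay in 9 of 17 replication promoters, 1 of 4 G1 to S control promoters and 1 of 13 mitosis promoters. It lay in 2.60% of all 27025 promoters of the table. A CHR-type motif, searched as TTTGAA or TTCGAA on both strands, lay in 11 of 13 mitosis promoters, 3 of 17 replication promoters and 21.7% of all promoters. All 11 of these mitosis promoters also held a CCAAT box, and CHR and CCAAT together lay in 8.61% of all promoters. In the 150 bases before the start alone, E2F-type motifs lay in 5 of 17 replication promoters and 1.44% of all promoters. CHR-type motifs lay there in 5 of 13 mitosis promoters and 11.2% of all promoters. A match is a description of letters and not a binding site. Over 10% of the exon bases of 6 genes are shared with a gene on the other strand. The shares are 78.8% for Fen1, 67.3% for Gins2, 23.4% for Ccnd1, 17.4% for Ccne2, 12.5% for Ccna2 and 10.8% for Orc1. Since the reads carry no strand, the counts of these genes can hold reads of that neighbour.

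The following 160 bases before the gene start, written 5′ to 3′ on the strand of the gene, show the arrangement in 2 replication genes and 3 mitosis genes. Capitals mark E2F-type or CHR-type matches on either strand. Mcm6 encodes a helicase subunit and lies at chr1:128359706-128359865 on the minus strand; Orc1, a subunit of the origin recognition complex, lies at chr4:108579294-108579453 on the plus strand. Cdk1, the mitotic kinase, lies at chr10:69352913-69353072 on the minus strand and held both kinds of motif. Top2a, a DNA topoisomerase needed to separate sister chromatids, lies at chr11:99024190-99024349, and Mki67, which codes for the Ki-67 proliferation antigen, at chr7:135716380-135716539, both on the minus strand.
Mcm6: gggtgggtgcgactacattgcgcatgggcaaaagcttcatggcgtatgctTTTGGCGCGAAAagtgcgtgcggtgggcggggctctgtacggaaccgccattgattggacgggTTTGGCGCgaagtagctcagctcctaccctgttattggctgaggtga
Orc1: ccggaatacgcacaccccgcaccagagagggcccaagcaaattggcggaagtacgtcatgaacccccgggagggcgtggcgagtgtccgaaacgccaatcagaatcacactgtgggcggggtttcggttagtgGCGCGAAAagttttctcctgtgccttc
Cdk1: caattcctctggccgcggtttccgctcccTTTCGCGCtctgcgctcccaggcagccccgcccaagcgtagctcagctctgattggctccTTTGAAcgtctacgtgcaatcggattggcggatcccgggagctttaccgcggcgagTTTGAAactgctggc
Top2a: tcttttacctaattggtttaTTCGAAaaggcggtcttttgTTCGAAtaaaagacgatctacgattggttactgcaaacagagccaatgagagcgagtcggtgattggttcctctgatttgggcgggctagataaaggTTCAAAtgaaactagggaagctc
Mki67: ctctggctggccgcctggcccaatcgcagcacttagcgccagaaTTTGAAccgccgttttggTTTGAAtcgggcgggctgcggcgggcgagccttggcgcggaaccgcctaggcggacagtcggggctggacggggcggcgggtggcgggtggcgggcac

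Across the 16 groups the genes varied by moderate factors. The ratio of the highest to the lowest group mean was 1.47 to 4.18 for replication genes (median 2.08), 1.85 to 3.83 for G1 to S control genes (median 2.75) and 1.44 to 2.41 for mitosis genes (median 2.01). HoxA2OE was the group of the highest mean for 16 of the 44 genes and the E8.5 progenitors for 15. These means depend on the scaling factors, which were 0.514, 0.775 and 0.765 for HoxA2OE. With these factors the median log2 differences of HoxA2OE from wild-type Md were 0.12 for replication and 0.56 for mitosis. Scaled by total counts they were -0.48 and -0.08. The ranking of groups was not repeated with total counts. The lowest mean was in E11.5 PA2 Control for 12 genes, 11 of them of replication. Per kilobase of gene model, the highest levels in wild-type cells of E10.5 were those of Mki67 at 154 CPM per kilobase and Top2a at 132. The lowest on the same scale were E2f2 at 4.01 and E2f1 at 6.28 CPM per kilobase, both transcription factors of the G1 to S switch.

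**Figure D1:**
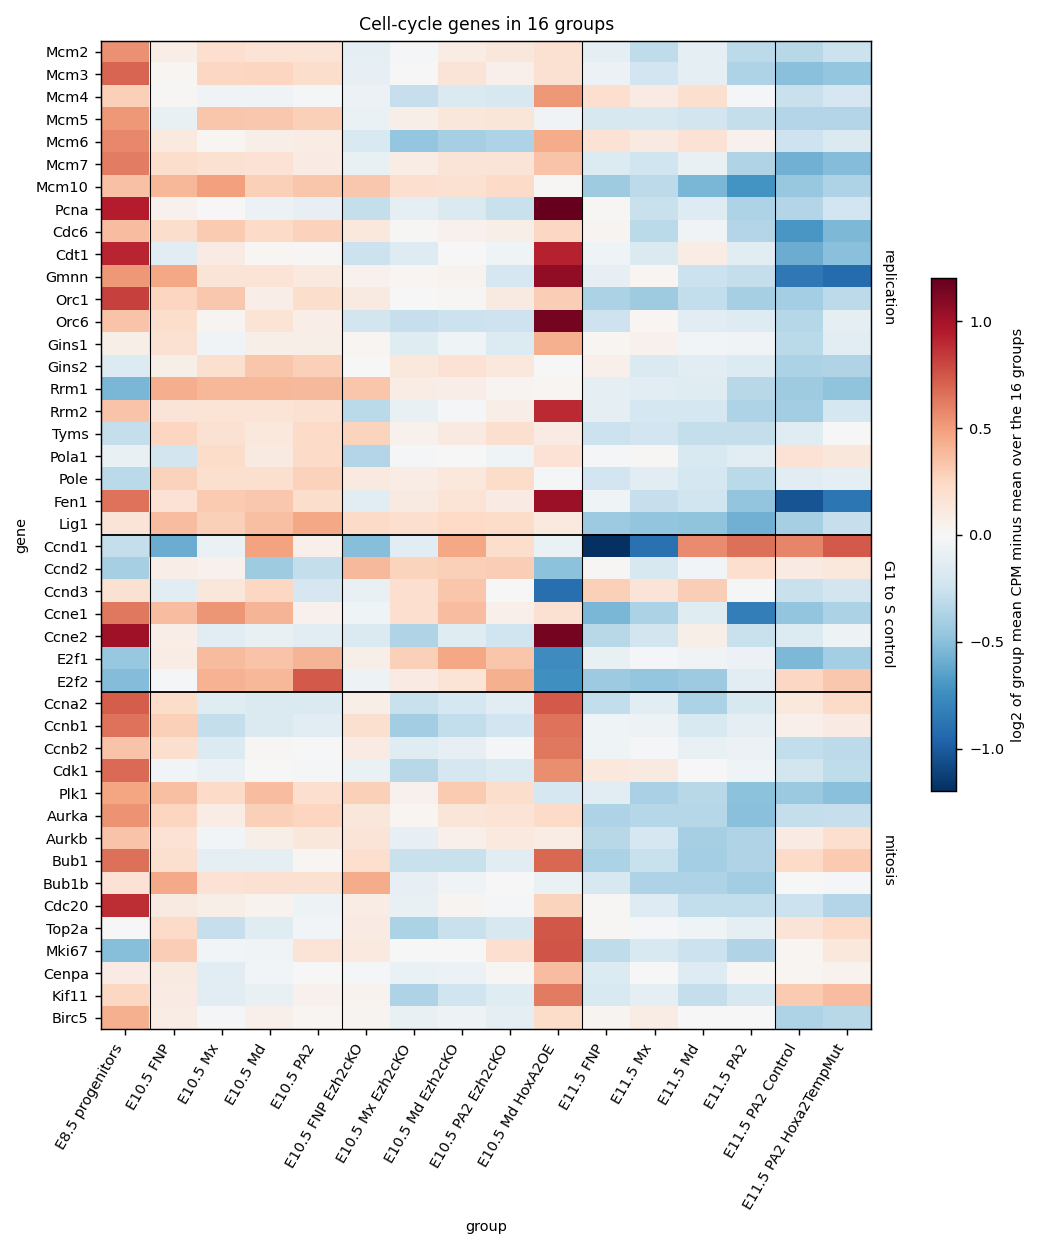
Level of each of the 44 genes (rows, grouped by list) in the 16 groups (columns), as log2 of the group mean CPM minus the mean over groups; red is high and blue is low. The E8.5 and HoxA2OE columns hold the most red, and the replication rows turn blue in the E11.5 columns. The levels in the HoxA2OE column depend on the scaling.

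The mean deviation of a list, taken per library as the mean over its genes of log2 CPM minus the gene's mean over libraries, gives the same picture by library. For replication it was 0.33 ± 0.01 (SD, n = 3) at E8.5, 0.16 to 0.20 as the means of the 4 wild-type groups of E10.5, and -0.28 to -0.11 in those of E11.5. For mitosis it was 0.37 ± 0.04 (n = 3) at E8.5, 0.20 ± 0.03 (n = 3) in FNP at E10.5, and between -0.05 and 0.04 in the other E10.5 wild-type groups. The mitosis list was thus lower than at E8.5 in every wild-type group of E10.5, while the E10.5 FNP libraries, at 0.17 to 0.23, lay above all libraries of the other 3 subpopulations of that stage.

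**Figure D2:**
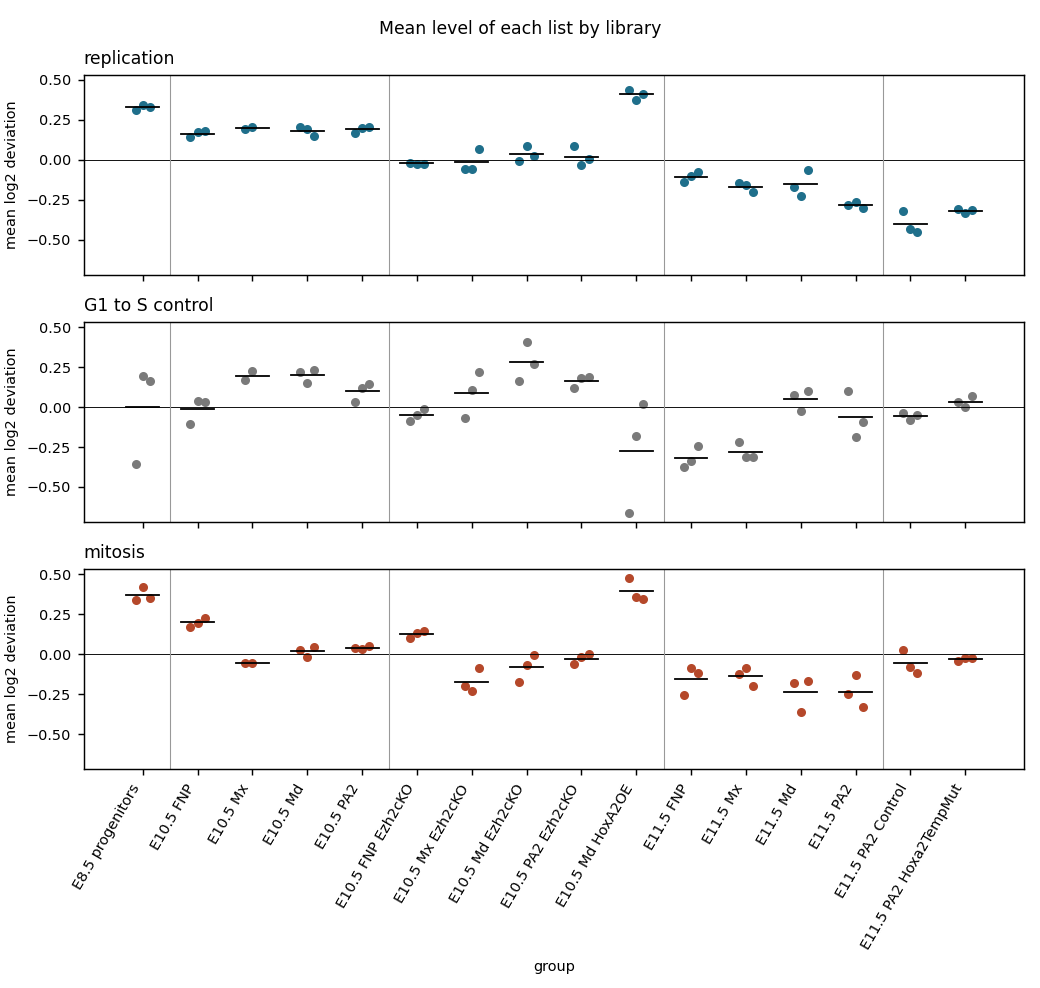
Mean log2 deviation of the replication, G1 to S control and mitosis lists (one panel each) in every library; points are libraries and bars are group means. The replication points of E11.5 lie lower than those of E10.5 in all 4 wild-type subpopulations, and the HoxA2OE points of G1 to S control spread from -0.66 to 0.02.

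The comparison of the 4 wild-type subpopulations at E10.5, averaged with equal weight, with the E8.5 progenitors asks how the genes moved as progenitors became facial crest. Mitosis genes were mostly lower at E10.5, while the replication genes went both ways. Of 22 replication genes 6 rose and 11 fell, of 15 mitosis genes 1 rose and 10 fell, and of 7 G1 to S control genes 3 rose and 2 fell (edgeR quasi-likelihood test, Benjamini-Hochberg adjusted p under 0.05 over 20560 genes). Over all genes tested, 32.1% rose and 36.3% fell, against which 11 of 22 and 10 of 15 are to be read. The median log2 change was -0.26 for replication, -0.31 for mitosis and 0.25 for G1 to S control, against -0.03 over all genes. Scaled by total counts in place of the trimmed mean of M values (TMM), 4 replication genes rose and 13 fell. Without the 4 libraries that stand apart, the counts were 6 and 11 for replication, 2 and 3 for G1 to S control, and 1 and 11 for mitosis.

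Among the replication genes that fell were the clamp Pcna, the helicase subunits, Cdt1 and Orc1. Pcna (ENSMUSG00000027342, chr2:132249162-132253314, minus strand, GRCm38) was at 367, 284 and 279 CPM in the 3 progenitor libraries and at 146 to 191 CPM, median 156, in the 11 libraries of E10.5. The groups did not overlap, and the log2 change was -0.96 ± 0.10 (SE), adjusted p = 1.24e-10. Cdt1, which loads the helicase with Cdc6, was at 67.5, 63.9 and 63.3 CPM before and at 30.6 to 38.1 CPM, median 34, at E10.5. Its log2 change was -0.91 ± 0.07, adjusted p = 7.62e-15, again with no overlap. Orc1 was at 53.3, 62.4 and 58.7 CPM at E8.5 against a mean of 38 ± 2.53 CPM (SD, n = 11), a log2 change of -0.60 ± 0.06, adjusted p = 2.26e-11. The 6 helicase subunits Mcm2 to Mcm7 also fell, by log2 changes of -0.30 for Mcm5 to -0.52 for Mcm3. Gmnn, the inhibitor of Cdt1, fell by 0.30 on the log2 scale, adjusted p = 0.0272, and Fen1, the flap nuclease of lagging-strand synthesis, by 0.40. Cdc6 and Orc6, which also act in licensing, were not called, at -0.11 (adjusted p = 0.280) and -0.22 (adjusted p = 0.0823).

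The genes that rose were Rrm1, Pole, Tyms, Gins2, Lig1 and Pola1. Rrm1, the large subunit of ribonucleotide reductase (ENSMUSG00000030978, chr7:102441695-102469771, plus strand), was at 160, 171 and 166 CPM in the progenitors and at 306 to 338 CPM, median 319, at E10.5. All 11 later libraries lay above all 3 earlier ones, and the log2 change was 0.95 ± 0.07, adjusted p = 1.08e-15. Pole, the catalytic subunit of the leading-strand polymerase, was at 123, 140 and 140 CPM in the progenitors and at 186 to 212 CPM, median 198, at E10.5. Its log2 change was 0.56 ± 0.07, adjusted p = 1.14e-09. The thymidylate synthase Tyms rose by 0.49 ± 0.05 on the log2 scale. Rrm2, the other subunit of the reductase, had a log2 change of -0.17 ± 0.09 with adjusted p = 0.101 and was not called.

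In the mitosis list cyclins A2, B1 and B2, the kinase Cdk1, Cdc20 and the checkpoint kinase Bub1 were among the genes that fell. Cdc20, an activator of the anaphase-promoting complex, was at 61.3, 85.2 and 76 CPM in the progenitors and at 35.3 to 47.6 CPM, median 41.8, at E10.5, a log2 change of -0.85 ± 0.10, adjusted p = 4.58e-10. Cyclin A2 (Ccna2) was at 516, 395 and 378 CPM and then at 219 to 325 CPM, median 236, a change of -0.79 ± 0.07, adjusted p = 2.95e-12. Cyclin B1 (Ccnb1) was at 178, 182 and 166 CPM and then at 89.6 to 137 CPM, median 99.4, a change of -0.73 ± 0.07, adjusted p = 5.49e-12. The stages did not overlap for any of these 3 genes. Cdk1 was at 125, 131 and 127 CPM in the progenitors and at 65.9 to 85.2 CPM, median 81, at E10.5, with a change of -0.71 ± 0.08, adjusted p = 1.05e-10. Mki67 was the mitosis gene that rose: it was at 1219, 882 and 911 CPM in the progenitors and at 1371 to 1959 CPM, median 1451, at E10.5, a change of 0.61 ± 0.11, adjusted p = 6.9e-06. All 11 libraries of E10.5 were above the 3 of E8.5. Top2a, Bub1b, Plk1 and Cenpa had log2 changes between -0.19 and 0.08 and were not called.

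Among the genes of G1 to S control the E-type cyclins and the E2F genes went opposite ways. Cyclin E2 (Ccne2) was at 97.6, 71.6 and 65.4 CPM in the progenitors and at 33 to 47.8 CPM, median 35.6, at E10.5, a log2 change of -1.09 ± 0.12, adjusted p = 1.28e-10. Ccne1 fell by 0.29 ± 0.11, adjusted p = 0.0136, with overlapping libraries, a call lost in 3 of 14 fits that left out 1 library. E2f2 was at 7.54, 10.4 and 12.8 CPM and then at 13.1 to 26.7 CPM, median 19.7, a change of 0.90 ± 0.13, adjusted p = 1.33e-07. E2f1 was at 6.09, 15.1 and 14 CPM and then at 15.7 to 24.1 CPM, median 20.2, a change of 0.76 ± 0.19, adjusted p = 0.000508. For E2f1 and E2f2 the later libraries lay above the earlier ones by a small margin, and E8.5 library 1 was the lowest of its group in both. Without that library the change of E2f1 was 0.45, adjusted p = 0.0244, and that of E2f2 was 0.73. Among the D-type cyclins, which answer to growth signals, Ccnd1 changed by 0.25 ± 0.12 (adjusted p = 0.0557), Ccnd2 by 0.25 ± 0.10 (adjusted p = 0.0217) and Ccnd3 by -0.17 ± 0.18 (adjusted p = 0.397). Their libraries overlapped between the stages, and the call of Ccnd1 changed in 5 of 14 fits that left out 1 library. The Ccnd2 call rested on E8.5 library 1, at 318 CPM against 457 and 442 CPM in the other 2, since without it the change was 0.11 with adjusted p = 0.357. Without the 4 libraries that stand apart Ccnd3 had a change of -0.42, adjusted p = 0.00343.

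The progenitor libraries also differed in markers of other cell types. All 8 markers of neural progenitors were lower at E10.5, with summed levels of 67.9 to 162 CPM against 570 to 736 CPM at E8.5. All 8 epithelial and all 6 endothelial markers were lower too, at 2.58 to 15.7 against 155 to 177 CPM and at 1.86 to 7.42 against 135 to 150 CPM, and 5 of 7 erythroid markers fell. Of 8 mesenchyme markers 7 rose. The mitochondrial share of reads was 19.9% to 33.6% at E10.5 and 11.46% to 18.7% at E8.5, with no overlap. The part of the markers and of this share in the changes of the cell-cycle genes was not tested.

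Genes of the same processes outside the 44 were counted in the same way. Of 32 other replication genes 1 rose and 15 fell: Tk1, thymidine kinase, rose by 1.07 ± 0.13 on the log2 scale, and Orc5 fell by 1.33 ± 0.12. Of 32 other mitosis genes 2 rose and 17 fell, among the latter the kinetochore gene Spc25 (-1.37) and Cks2 (-1.29), a partner of Cdk1. Of 19 other genes of G1 to S control 5 rose and 8 fell, with a median log2 change of -0.05 against 0.25 in the 7. Cdk6, a kinase bound by D-type cyclins, had the largest rise of these, from a mean of 8.90 CPM to 61.4 CPM (2.73 ± 0.11), while Rb1, which holds E2F factors in check, fell by 1.29. Of 7 inhibitors of cyclin-dependent kinases 4 rose and 1 fell; Cdkn1c rose by 1.61 and Cdkn1a fell by 0.97.

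**Figure D3:**
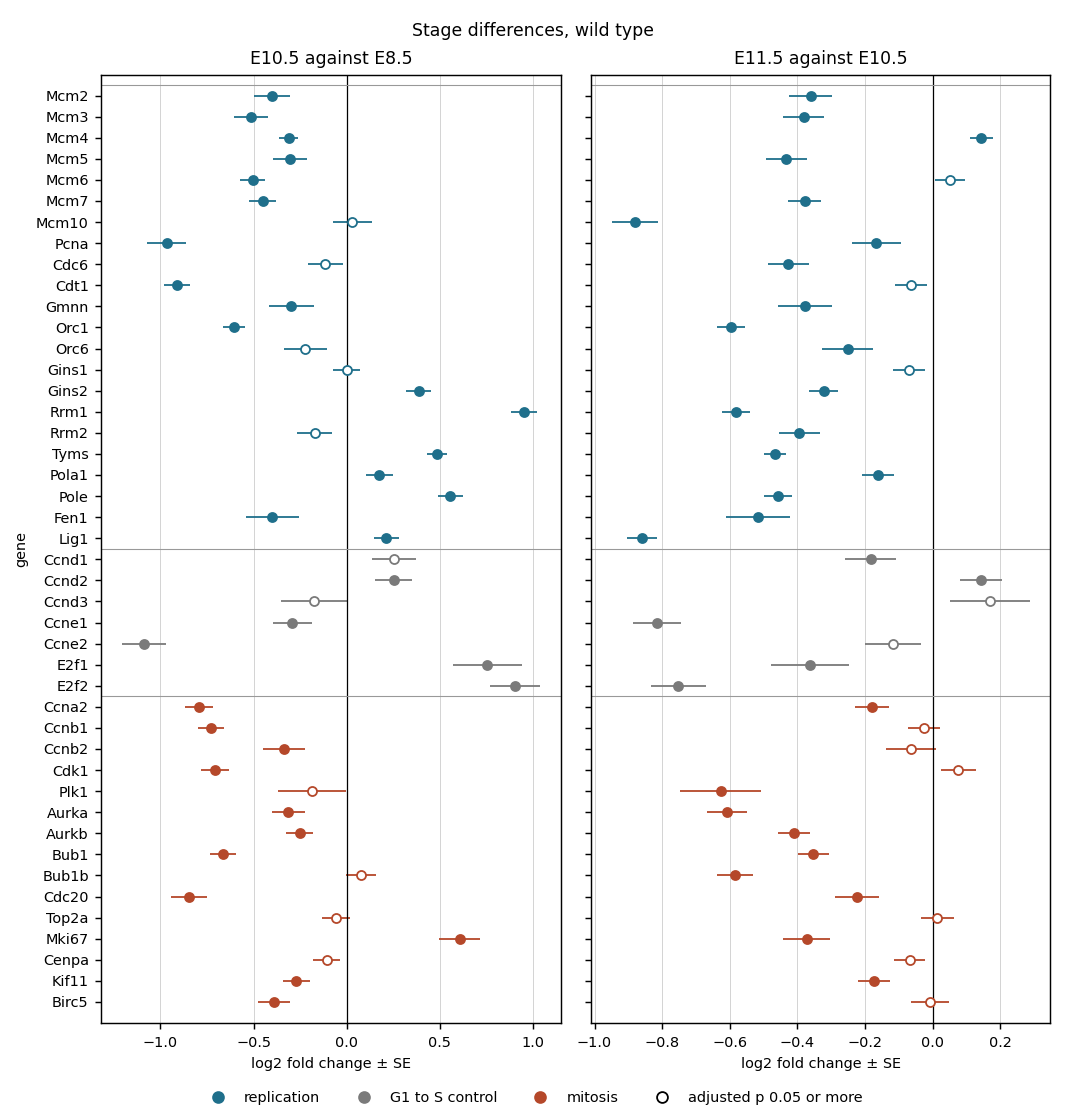
Log2 fold change ± SE of each gene for E10.5 against E8.5 (left) and E11.5 against E10.5 (right), by list; filled points have an edgeR adjusted p under 0.05 and open points 0.05 or more. The replication genes lie on both sides of 0 on the left, with Rrm1 at 0.95 and Pcna at -0.96, and nearly all below 0 on the right.

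From E10.5 to E11.5 the replication genes fell almost as a whole. Over the 4 wild-type subpopulations, 18 of 22 replication genes fell and 1 rose, 9 of 15 mitosis genes fell, and 4 of 7 G1 to S control genes fell while 1 rose. Over all genes, 33.7% rose and 30.1% fell. The median log2 change was -0.38 for replication, -0.18 for mitosis and -0.18 for G1 to S control, against 0.03 over all genes. Scaled by total counts, which shifted the median of all genes by 0.12, the counts of genes higher and lower were 2 and 16 for replication, 2 and 6 for mitosis, and 1 and 2 for G1 to S control. The E10.5 wild-type libraries entered both stage comparisons, so the values of one are not independent of those of the other.

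Mcm10, an initiation factor that joins the helicase as it starts (ENSMUSG00000026669, chr2:4989714-5012791, minus strand), was at 79 to 94.6 CPM, median 82.4, in the 11 libraries of E10.5 and at 39.2 to 57.8 CPM, median 48.3, in the 12 of E11.5. The log2 change was -0.88 ± 0.07, adjusted p = 1.13e-14, with no overlap. Lig1, the ligase that seals Okazaki fragments (ENSMUSG00000056394, chr7:13277283-13311433, plus strand), was at 174 to 210 CPM, median 189, and then at 89.1 to 119 CPM, median 105. Its change was -0.86 ± 0.04, adjusted p = 3.66e-20, and again no libraries overlapped. Orc1 was at 33.9 to 42 CPM, median 37.9, and then at 23.3 to 27.8 CPM, median 25.3 (-0.60 ± 0.04, adjusted p = 6.89e-16). Rrm1, which had risen from E8.5, was at 306 to 338 CPM, median 319, and then at 183 to 241 CPM, median 219 (-0.58 ± 0.04, adjusted p = 1.03e-15). Both had stages that did not overlap. Mcm4 rose by 0.14 ± 0.03, adjusted p = 0.000347, with overlapping levels of 242 to 275 CPM and 247 to 325 CPM. Mcm6, Cdt1 and Gins1 were not called, with log2 changes of 0.05, -0.06 and -0.07.

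Of the mitosis genes the kinases Plk1, Aurka and Aurkb and the checkpoint kinase Bub1b had the largest falls. Plk1 was at 50.9 to 65.6 CPM, median 56.7, at E10.5 and at 28.2 to 46.9 CPM, median 36.9, at E11.5, a log2 change of -0.63 ± 0.12, adjusted p = 1.7e-05. Aurka was at 44.5 to 55.9 CPM, median 51.6, and then at 27.9 to 38.9 CPM, median 33.7 (-0.61 ± 0.06, adjusted p = 7.44e-12). Bub1b was at 169 to 247 CPM, median 179, and then at 109 to 147 CPM, median 123 (-0.58 ± 0.05, adjusted p = 1.39e-12). The stages did not overlap in these 3 genes. Aurkb fell by 0.41 ± 0.05, adjusted p = 8.34e-10. The 6 mitosis genes that were not called were Ccnb1, Ccnb2, Cdk1, Top2a, Cenpa and Birc5, with log2 changes between -0.07 and 0.08. Ccnb1 and Cdk1, which had fallen from E8.5 to E10.5, were thus among the genes with no call from E10.5 to E11.5.

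In the G1 to S list, Ccne1 was at 23.3 to 36 CPM, median 30.7, at E10.5 and at 11 to 23.1 CPM, median 17.7, at E11.5, a log2 change of -0.81 ± 0.07, adjusted p = 3.74e-13, with no overlap. E2f2 fell by 0.75 ± 0.08, adjusted p = 1.7e-10, and E2f1 by 0.36 ± 0.12, adjusted p = 0.00617, both with overlapping libraries. Ccnd1 fell by 0.18 ± 0.07, adjusted p = 0.0304, over levels of 165 to 434 CPM and 126 to 503 CPM that overlapped almost wholly. Scaled by total counts, the change of Ccnd1 was -0.07 with adjusted p = 0.591. Its call was lost in 3 of 23 fits that left out 1 library. Ccnd2 rose by 0.14 ± 0.06, adjusted p = 0.0413, a call lost in 15 of these 23 fits, and Ccnd3 had a change of 0.17 ± 0.12, adjusted p = 0.211. The averages of Ccnd1 and Ccnd2 covered opposite movements in the subpopulations, described next.

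The fall of replication genes was seen in each subpopulation. In FNP 9 replication genes fell and 1 rose, with 22.7% of all genes higher and 20% lower. In Mx 15 fell and none rose (background 20% and 18.3%), in Md 14 fell and 1 rose (21.3% and 17%), and in PA2 16 fell and none rose (21.3% and 18.1%). The mitosis genes that fell were 9 in FNP, 7 in PA2, 6 in Md and 2 in Mx, and none rose in any of the 4. Whether the change itself differed between subpopulations was tested with an interaction F test for every gene. It passed for 6 of the 44 genes, against 15.6% of all genes: Ccnd1 (adjusted p = 4.11e-06), Ccnd2 (0.00358), Pola1 (0.00502), Gins2 (0.00889), Ccnb1 (0.0174) and Ccna2 (0.0184).

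Cyclin D1 (Ccnd1, ENSMUSG00000070348, chr7:144929931-144939869, minus strand) parted the subpopulations most. In FNP it was at 165, 225 and 213 CPM at E10.5 and at 126, 143 and 128 CPM at E11.5, a log2 change of -0.60 ± 0.15, adjusted p = 0.000911. In Mx it was at 286 and 290 CPM and then at 172, 181 and 138 CPM, a change of -0.82 ± 0.16, adjusted p = 7.74e-05. In both the stages did not overlap. In PA2 it was at 305, 321 and 324 CPM and then at 503, 461 and 476 CPM, a rise of 0.60 ± 0.15, adjusted p = 0.000999. In Md it was at 434, 407 and 432 CPM and then at 470, 407 and 473 CPM, with a change of 0.08 and adjusted p = 0.685. Ccnd2 rose in Md, from 385, 379 and 424 CPM to 517, 491 and 554 CPM (0.39 ± 0.12, adjusted p = 0.00796), and in PA2, from 431, 444 and 441 CPM to 561, 643 and 639 CPM (0.49 ± 0.12, adjusted p = 0.00121). In FNP and Mx its changes were -0.06 and -0.25, with adjusted p of 0.706 and 0.148.

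**Figure D4:**
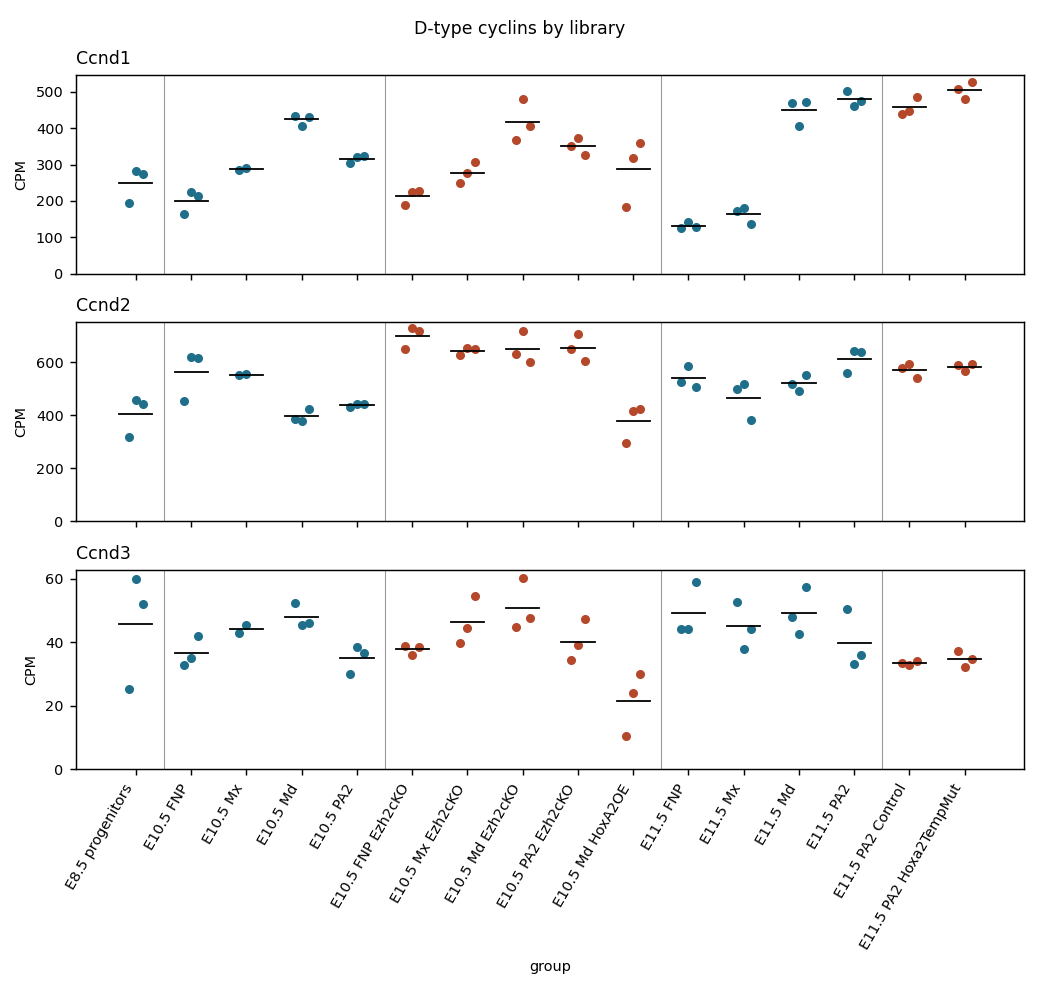
CPM of Ccnd1, Ccnd2 and Ccnd3 in every library of the 16 groups; points are libraries, blue for wild type and orange for other genotypes, and bars are group means. At E11.5 the Ccnd1 libraries of FNP and Mx lie at 126 to 181 CPM and those of Md and PA2 at 407 to 503 CPM.

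In the other 4 genes of the interaction test, FNP had the lowest or the highest change of the 4 subpopulations. The F test asks for any difference and does not compare FNP with the rest. Both FNP stages hold a library that stands apart, and the test was not repeated without these libraries. Ccna2 in FNP was at 325, 298 and 290 CPM at E10.5 and at 215, 200 and 224 CPM at E11.5 (-0.52 ± 0.10, adjusted p = 4.35e-05), while its changes in Mx, Md and PA2 were 0.01, -0.20 and -0.02 and were not called. Ccnb1 in FNP was at 137, 136 and 135 CPM and then at 104, 118 and 102 CPM (-0.34 ± 0.09, adjusted p = 0.00286), with changes of 0.23, -0.01 and 0.02 elsewhere, none of them called. For Gins2 and Pola1, both replication genes, it was the reverse. Gins2, a subunit of the Gins complex, was at 88.1, 97.5 and 96.1 CPM and then at 91.5, 90.6 and 97.9 CPM in FNP, a change of -0.01 with adjusted p = 0.948, and fell by 0.37, 0.47 and 0.45 in Mx, Md and PA2. Pola1, the catalytic subunit of the priming polymerase, had a change of 0.20 in FNP (adjusted p = 0.0709) and of -0.21 in Mx (adjusted p = 0.108), and fell by 0.29 in Md and 0.36 in PA2. Of the genes of this test, Gins2 shares 67.3% of its exon bases with a gene on the other strand, Ccnd1 23.4% and Ccna2 12.5%. Reads of these neighbours were not separated.

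Marker genes moved with the stage. Of 8 mesenchyme markers 6 rose and 1 fell, with summed levels of 1217 to 1790 CPM at E10.5 and 1938 to 2977 CPM at E11.5. Of 7 erythroid markers 6 fell, from sums of 25.2 to 423 CPM to sums of 26.5 to 78.5 CPM, and 5 of 6 endothelial markers rose, from 1.86 to 7.42 CPM to 4.63 to 22.5 CPM. Of 8 neuron markers 2 rose and 6 fell, of 8 neural progenitor markers 3 rose and 4 fell, and of 5 glial crest markers 0 rose and 3 fell. Neuron marker sums went from 10.8 to 11.3 CPM up to 55.8 to 70.2 CPM in FNP. In Mx they went from 156 to 183 CPM down to 55.6 to 64.9 CPM. The mitochondrial share was 19.9% to 33.6% at E10.5 and 11.7% to 19.5% at E11.5, with no overlap. The part of the markers and of this share in the changes was not tested. Of the wider lists, 18 of 32 other replication genes fell and 2 rose, 22 of 32 other mitosis genes fell and 2 rose, and 12 of 19 other genes of G1 to S control fell and 4 rose. Examples are Tk1 (-0.66), the spindle checkpoint gene Mad2l1 (-1.03), Cdk6 (-0.88) and the pocket protein gene Rbl2 (0.77). Of 7 inhibitors of cyclin-dependent kinases 3 rose and none fell. Cdkn1c, which encodes p57, rose from a mean of 154 ± 90.9 CPM (SD, n = 11) to 466 ± 301 CPM (n = 12), a log2 change of 1.55 ± 0.08.

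Within 1 stage the share of these genes that differed between subpopulations was near that of all genes at E10.5 and below it at E11.5. An F test for any difference among the 4 passed for 10 of 44 genes at E10.5, against 27% of all genes, and for 4 of 44 at E11.5, against 29.4%. Each subpopulation was then compared with the mean of the other 3. FNP at E10.5 had 5 mitosis genes higher and none lower, 3 replication genes lower and none higher, and 1 G1 to S control gene higher and 2 lower, with 15.9% of all genes higher and 11.7% lower. Scaled by total counts, which shifted the median of all genes by -0.20, 3 mitosis genes were higher and 5 replication genes were lower. Ccnb1 was at 135 to 137 CPM in FNP and 89.6 to 109 CPM in the other 8 libraries (log2 difference 0.48 ± 0.08, adjusted p = 2.8e-06). Ccna2 was at 290 to 325 CPM against 219 to 241 CPM (0.39 ± 0.08, adjusted p = 0.000205). Neither overlapped. On the replication side Pola1 was at 81.7, 96.5 and 94 CPM against 108 to 127 CPM (-0.40 ± 0.08, adjusted p = 8.63e-05), and Mcm5 at 102 to 115 CPM against 135 to 154 CPM (-0.40 ± 0.10, adjusted p = 0.00193). Summed neural progenitor markers were at 149 to 162 CPM in these FNP libraries and 67.9 to 115 CPM in the other subpopulations. Of the other markers, 6 of 8 epithelial and 4 of 6 endothelial ones were higher and 6 of 7 erythroid ones lower in FNP, and the mitochondrial share was 28.2% to 33.6% against 19.9% to 24.0%. The part of these in the FNP differences was not tested.

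In Mx, Md and PA2 at E10.5 no replication gene was called with edgeR, and at an unadjusted p under 0.05 there were 1, 2 and 1. DESeq2 called 0, 0 and 1 and limma-voom none. The background was 4.37% higher and 2.91% lower for Mx, 3.14% and 3.68% for Md, and 5.59% and 4.94% for PA2. The only mitosis gene called in these 3 was Top2a in Mx, at 985 and 1006 CPM (-0.29 ± 0.09, adjusted p = 0.043). The cyclins D and E and E2f2 carried the other calls. Ccnd1 was lower in FNP (-0.75 ± 0.13, adjusted p = 1.06e-05) and higher in Md (0.69 ± 0.12, adjusted p = 4.01e-05). Ccnd2 was higher in FNP (0.30, adjusted p = 0.0191) and lower in Md (-0.38 ± 0.10, adjusted p = 0.0122). E2f2 was lower in FNP (-0.53 ± 0.14) and higher in PA2 (0.47 ± 0.13), where Ccne1 was lower (-0.38 ± 0.12, adjusted p = 0.0268). Scaled by total counts, no G1 to S control gene was called higher in FNP or lower in Md or PA2. These calls of Ccnd2 and of Ccne1 were thus lost. Over each library left out in turn, 1 to 2 G1 to S control genes were called in Md and 0 to 2 in PA2. Markers of neurons were at 156 to 183 CPM in sum in the 2 Mx libraries and at 10.6 to 14.8 CPM in the others.

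At E11.5 Ccnd1 was called in each of the 4 comparisons. Relative to the other 3, Ccnd1 was lower in FNP (-1.31 ± 0.13, adjusted p = 7.06e-11) and Mx (-0.90 ± 0.13, adjusted p = 5.33e-07) and higher in Md (1.04 ± 0.11, adjusted p = 1.97e-09) and PA2 (1.17 ± 0.11, adjusted p = 3.58e-11). Ccne1 was higher in Md (0.44 ± 0.11, adjusted p = 0.00525) and lower in PA2 (-0.47 ± 0.12, adjusted p = 0.00238), and Ccnd2 was higher in PA2 (0.27, adjusted p = 0.0427). Scaled by total counts, PA2 had 1 G1 to S control gene higher and 0 lower, against 2 and 1 with TMM. The Ccne1 call in PA2 was thus lost. Of the replication genes, Cdc6 (0.27, adjusted p = 0.03) and Gins2 (0.21, adjusted p = 0.0143) were higher in FNP, and Rrm1 (-0.21, adjusted p = 0.0212) and Mcm4 (-0.19, adjusted p = 0.00985) lower in PA2. No mitosis gene was called in any of the 4 comparisons with edgeR, DESeq2 or limma-voom, with 2, 1, 1 and 0 at an unadjusted edgeR p under 0.05 in FNP, Mx, Md and PA2. The background at E11.5 was 12.6% higher and 12% lower for FNP, 5.84% and 5.5% for Mx, 4.16% and 2.94% for Md, and 9.41% and 8.27% for PA2. Markers of neurons also differed at E11.5, with sums of 55.8 to 70.2 CPM in FNP and 55.6 to 64.9 CPM in Mx. In Md these sums were 15.8 to 17.6 CPM and in PA2 9.74 to 12.02 CPM. Of 8 epithelial markers 7 were higher and 0 lower in FNP, and 1 was higher and 3 lower in Mx. The part of these markers in the Ccnd1 differences was not tested.

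Ezh2cKO cells at E10.5 were compared with wild type over the 4 subpopulations. Replication genes were slightly lower in the knockout and Ccnd2 was higher. Of 22 replication genes 13 fell and none rose, of 15 mitosis genes 4 fell and none rose, and of 7 G1 to S control genes 1 rose and 2 fell, with 16.1% of all genes higher and 14.7% lower. The median log2 change was -0.15 for replication, -0.10 for mitosis and -0.02 for G1 to S control, against -0.02 over all genes. All 22 replication and all 15 mitosis genes had a negative log2 change, as had the median of all genes. Signs measured in the same libraries are not independent of each other. The counts were sensitive to single libraries: without Ezh2cKO FNP library 2, 8 replication and 2 mitosis genes were lower and 1 G1 to S control gene was called, and without wild-type Mx library 2 there were 2 mitosis genes. Without Mx or Md Ezh2cKO library 1, 1 gene of G1 to S control was called. Scaled by total counts, 9 replication genes were lower and 1 gene of G1 to S control went each way.

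Mcm6 (ENSMUSG00000026355, chr1:128331591-128359656, minus strand) had the largest fall of the list. It was at 171 to 221 CPM, median 194, in wild type and at 131 to 170 CPM, median 137, in the 12 Ezh2cKO libraries, with no overlap. The log2 change was -0.43 ± 0.05, adjusted p = 5.17e-10. Orc6, a small subunit of the origin recognition complex, was at 57.7 to 72.5 CPM, median 64.2, and at 45.3 to 53.3 CPM, median 48.3, in the knockout (-0.38 ± 0.08, adjusted p = 0.000134), also with no overlap. Both subunits of ribonucleotide reductase fell: Rrm1 was at 306 to 338 CPM, median 319, against 235 to 310 CPM, median 259 (-0.27 ± 0.04, adjusted p = 1.4e-06), and Rrm2 changed by -0.26 ± 0.06, adjusted p = 0.00103. For Rrm1 the ranges overlapped narrowly.

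The mitosis genes called were Bub1b (-0.17 ± 0.05, adjusted p = 0.0121), Cdk1 (-0.16 ± 0.05, adjusted p = 0.0137), Kif11, a spindle motor (-0.16 ± 0.05, adjusted p = 0.00877), and Top2a (-0.13 ± 0.05, adjusted p = 0.0424). The call of Top2a was lost in 14 of 23 fits that left out 1 library and that of Cdk1 in 2. Cyclin D2 (Ccnd2) went the other way. It was at 379 to 619 CPM, median 444, in wild type and at 600 to 730 CPM, median 651, in the knockout, a log2 change of 0.45 ± 0.06, adjusted p = 1.77e-07, with an overlap at the FNP libraries of wild type. Ccnd1 had a change of 0.04 ± 0.07, adjusted p = 0.749, with a 95% interval of -0.11 to 0.19, and Ccnd3 of 0.10 ± 0.12, adjusted p = 0.586. E2f2 fell by 0.23 ± 0.08 (adjusted p = 0.0287) and Ccne1 by 0.20 ± 0.07 (adjusted p = 0.0294), calls lost in 5 and 8 of these 23 fits.

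The interaction F test found no difference of the Ezh2cKO effect between subpopulations in any of the 44 genes at an adjusted p under 0.05, against 1.63% of all genes. At an unadjusted p under 0.05 it gave 1 gene, Ccnd2 (edgeR F test, adjusted p = 0.457). Ccnd2 rose in Md (0.71 ± 0.12, adjusted p = 3.67e-05) and PA2 (0.58 ± 0.12, adjusted p = 0.000825) and was not called in FNP and Mx, at 0.31 and 0.22. No other of the 44 genes rose in a single subpopulation, while of all genes 6.85% rose in Mx, 6.69% in Md, 6.64% in PA2 and 4.97% in FNP. Within single subpopulations 4 replication genes fell in Mx, 3 in PA2, 2 in FNP and 2 in Md, where 3.41%, 2.53%, 1.83% and 2.18% of all genes fell. No mitosis gene was called in a single subpopulation with edgeR; at an unadjusted p under 0.05 there were 3, 1, 0 and 1 lower in the same order. In the wider lists 15 of 32 other replication genes, 8 of 19 other G1 to S control genes and 11 of 32 other mitosis genes fell, among them Rpa3 (-0.33), Mycn (-0.33) and Ndc80 (-0.25), and 1 mitosis gene, the phosphatase gene Cdc25b, rose (0.25). Of 7 inhibitors of cyclin-dependent kinases 6 rose. Cdkn2c rose from a mean of 0.840 CPM to 8.20 CPM (3.32 ± 0.14 on the log2 scale) and Cdkn2b from 0.144 ± 0.197 CPM (SD, n = 11) to 2.63 ± 1.41 CPM (n = 12). Markers of neural progenitors were higher in 6 of 8 cases, with sums of 105 to 196 CPM against 67.9 to 162 CPM, and 5 of 8 neuron and 5 of 8 epithelial markers were higher, while 4 of 7 erythroid markers were lower. The mitochondrial share was higher in the knockout with no overlap in Mx (24.9% to 28.3% against 21.8% to 22.6%), Md (25.5% to 31.0% against 19.9% to 24.0%) and PA2 (26.7% to 29.9% against 22.2% to 23.6%), and overlapped in FNP. The part of the markers and of this share in the result was not tested.

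HoxA2OE cells of the mandibular process were compared with wild-type Md at E10.5. Under TMM scaling they had the highest levels of many of these genes in the study. With TMM scaling, 10 of 22 replication genes were higher and 5 lower, 9 of 15 mitosis genes higher and 2 lower, and 1 of 7 G1 to S control genes higher and 4 lower. The background was 27.1% higher and 27.8% lower. The median log2 difference was 0.12 for replication, 0.56 for mitosis and -0.56 for G1 to S control, against -0.07 over all genes. These counts depend on the scaling. Scaled by total counts, which moved the median of all genes by -0.59, 3 replication genes were higher and 14 lower, 3 mitosis genes higher and 6 lower, and 1 G1 to S control gene higher and 6 lower. Without HoxA2OE library 1, 10 replication genes were higher and 2 lower, 9 mitosis genes higher and none lower, and 1 G1 to S control gene higher and 4 lower.

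Pcna had the largest difference of the replication list. It was at 590, 318 and 332 CPM in HoxA2OE and at 164, 148 and 149 CPM in wild-type Md, a log2 difference of 1.43 ± 0.14, adjusted p = 1.03e-10. It was 1.06 without library 1 and the other libraries that stand apart, and 0.74 when scaled by total counts. Orc6 was at 188, 96.9 and 98.7 CPM against 64.3, 66.6 and 64.2 CPM (0.97 ± 0.15, adjusted p = 5.58e-07), Cdt1 at 75.5, 59 and 62 CPM against 33.7, 37.4 and 34 CPM (0.90 ± 0.09, adjusted p = 2.89e-10). Gmnn was at 69.5, 41.2 and 42 CPM against 26.3, 27.3 and 28 CPM (0.90 ± 0.16, adjusted p = 5.8e-06). In these 4 genes all HoxA2OE libraries were above all wild-type ones, and library 1 was the highest. Without the libraries that stand apart, Orc6, Cdt1 and Gmnn differed by 0.57, 0.77 and 0.60 and were still called; by total counts they differed by 0.28, 0.27 and 0.23, and Gmnn was no longer called (adjusted p = 0.123). Rrm1 was lower, at 256, 224 and 257 CPM against 326, 306 and 323 CPM (-0.37 ± 0.08, adjusted p = 0.000146). Mcm5 was also lower (-0.36 ± 0.12, adjusted p = 0.00814), but not called without the libraries that stand apart (-0.26).

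Of the mitosis genes Ccna2 was at 540, 372 and 386 CPM in HoxA2OE and at 236, 220 and 234 CPM in wild type (0.91 ± 0.10, adjusted p = 7.52e-10). Top2a was at 2315, 1899 and 1833 CPM against 1131, 1029 and 1116 CPM (0.88 ± 0.10, adjusted p = 7.76e-10). Ccnb1 was at 207, 164 and 155 CPM against 96.7, 97.8 and 103 CPM (0.82 ± 0.09, adjusted p = 1.73e-09). The genotypes did not overlap in any of them. Bub1, a kinase of the spindle checkpoint, differed by 0.80 ± 0.09, adjusted p = 1.97e-09. The differences of these 4 genes were 0.70, 0.75, 0.67 and 0.65 without the libraries that stand apart, and 0.26, 0.25, 0.19 and 0.17 by total counts, where Bub1 was no longer called (adjusted p = 0.0522). Plk1 (-0.56 ± 0.23, adjusted p = 0.0382) and Bub1b (-0.26 ± 0.10, adjusted p = 0.0285) were lower, but the calls were lost in 4 and 3 of the 6 fits that left out 1 library. Plk1 was at 18.6, 48.4 and 55.1 CPM in HoxA2OE and 65.6, 57.2 and 58.5 CPM in wild type, and without HoxA2OE library 1 its difference was -0.24.

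In G1 to S control, cyclin E2 was higher and the E2F genes and cyclins D1 and D3 lower. Ccne2 was at 125, 65.5 and 66.5 CPM in HoxA2OE against 34.9, 36.4 and 37.7 CPM (1.24 ± 0.16, adjusted p = 3.29e-08). Ccnd3 was at 10.45, 24 and 30 CPM against 52.4, 45.4 and 46.1 CPM (-1.15 ± 0.23, adjusted p = 6.88e-05). E2f2 was at 6.74, 8.12 and 11.8 CPM against 20.4, 18.2 and 19.7 CPM (-1.12 ± 0.16, adjusted p = 2.75e-07). None of the 3 overlapped. E2f1 was at 4.42, 11.52 and 12.5 CPM against 20.6, 18.3 and 22.1 CPM (-1.08 ± 0.23, adjusted p = 0.000137), and Ccnd1 at 184, 319 and 360 CPM against 434, 407 and 432 CPM (-0.56 ± 0.15, adjusted p = 0.00127). All 5 were still called without library 1 and the other libraries that stand apart, at 0.84 for Ccne2, -0.85 for Ccnd3, -0.98 for E2f2, -0.77 for E2f1 and -0.34 for Ccnd1. Ccnd2, at 294, 417 and 426 CPM against 385, 379 and 424 CPM, had a difference of -0.06 ± 0.12, adjusted p = 0.677; by total counts it was -0.63 and called (adjusted p = 0.00108).

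**Figure D5:**
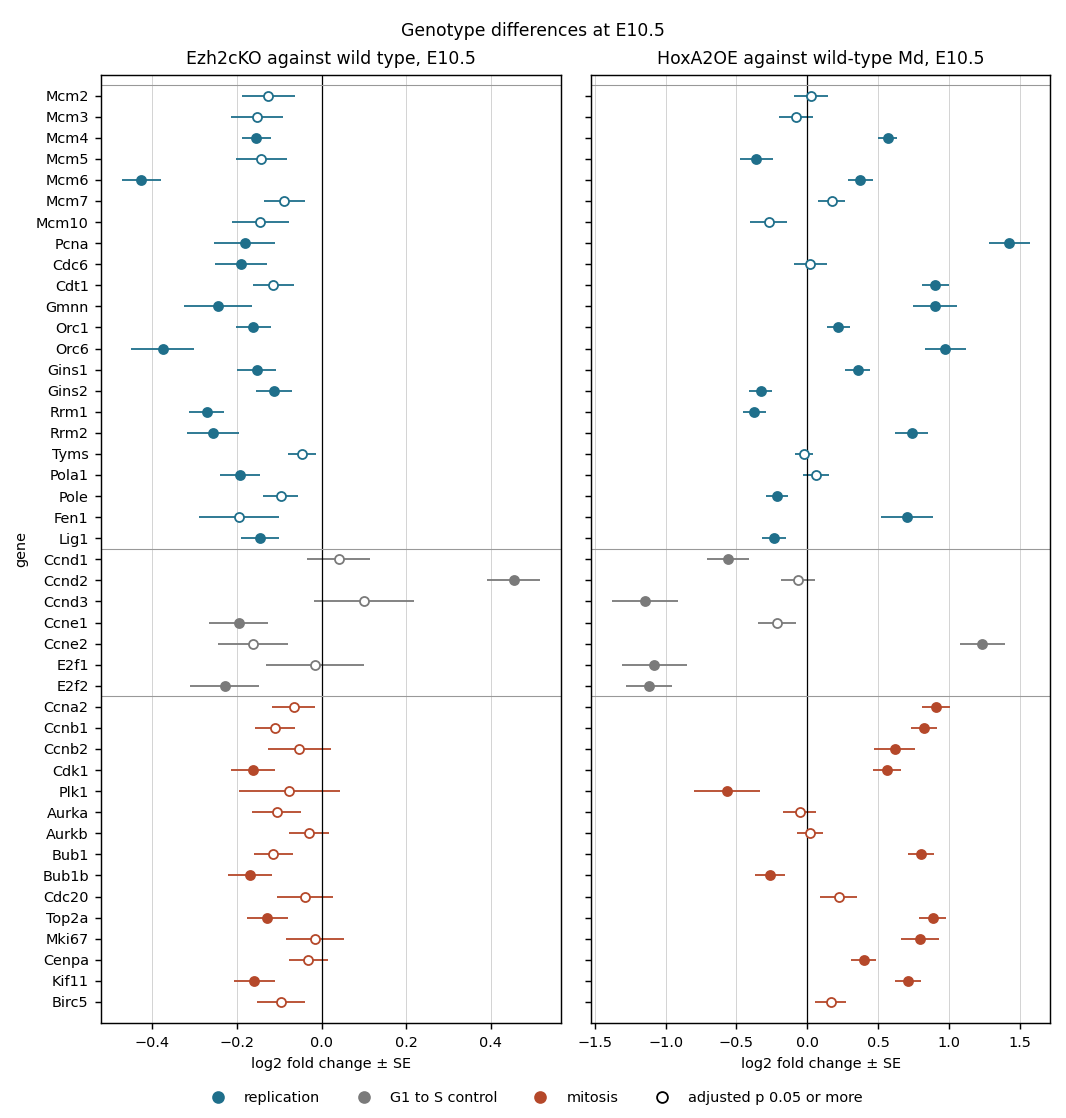
Log2 fold change ± SE of each gene for Ezh2cKO against wild type over 4 subpopulations (left) and HoxA2OE against wild-type Md (right), by list; filled points have an edgeR adjusted p under 0.05. On the left no replication gene lies above 0 and Ccnd2 is at 0.45; on the right values run from -1.15 for Ccnd3 to 1.43 for Pcna.

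In the wider lists, under TMM scaling, 15 of 32 other replication genes were higher and 7 lower, 18 of 32 other mitosis genes higher and 2 lower, and 12 of 19 other genes of G1 to S control higher and 3 lower. The last list had a median of 0.33, against -0.56 for the 7 G1 to S control genes. Rfc4, a subunit of the clamp loader, differed by 1.45, Cks2 by 1.97, Spc25 by 1.81 and Rb1 by 1.07, while Pold2 (-1.10) and Tk1 (-0.96) were lower. Cdkn1c was lower, at a mean of 91.5 ± 24.0 CPM against 285 ± 5.49 CPM (SD, n = 3 each; -1.64 on the log2 scale), as was Cdkn1a (-1.89). Other markers differed as well. Of 8 mesenchyme markers 5 were higher, with sums of 2149 to 2904 CPM against 1627 to 1680 CPM, and 6 of 7 erythroid markers were lower, with sums of 10.47 to 13.5 CPM against 219 to 284 CPM. The HoxA2OE libraries held 45.6 to 49.8 M reads and the wild-type Md ones 18.8 to 22.6 M. The part of these markers, of the mitochondrial share and of depth in the result was not tested.

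In PA2 at E11.5 none of the 44 genes was called between Hoxa2TempMut and Control, where 0.258% of all genes were higher and 0.365% lower. At an unadjusted p under 0.05 edgeR gave 2 replication genes, both higher, and no gene of the other lists, and DESeq2 and limma-voom called none. The median log2 change was 0.08 for replication, 0.10 for G1 to S control and 0.04 for mitosis. Ccnd1 was at 509, 481 and 528 CPM in Hoxa2TempMut and at 438, 448 and 485 CPM in Control, overlapping by 1 library, a difference of 0.15 with a 95% interval of -0.15 to 0.44. Ccnd2 was at 590, 568 and 594 CPM against 579, 595 and 542 CPM (0.03, interval -0.21 to 0.27), and Ccnd3 at 37.2, 32.1 and 34.6 CPM against 33.4, 32.7 and 34.2 CPM (0.05, interval -0.41 to 0.51).

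The Control libraries differed from wild-type PA2 of the same stage in part of the replication and mitosis genes. Of 22 replication genes 1 was higher and 7 lower, and of 15 mitosis genes 7 were higher and 1 lower, with 10.1% of all genes higher and 12% lower. The median log2 difference was -0.11 for replication and 0.21 for mitosis, against -0.01 over all genes. No gene of G1 to S control was called with edgeR, with 2 higher and 1 lower at an unadjusted p under 0.05, and DESeq2 and limma-voom each called 1. Per library, the level of the mitosis list minus that of replication was 0.34 to 0.36 in Control, 0.27 to 0.31 in Hoxa2TempMut and -0.03 to 0.13 in wild-type PA2. By total counts, which moved the median of all genes by -0.11, no replication gene was higher and 8 were lower, and 4 mitosis genes were higher and 2 lower.

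Bub1 was at 269, 237 and 231 CPM in Control and at 143, 183 and 163 CPM in wild type (0.59 ± 0.09, adjusted p = 5.12e-06). Kif11 was at 426, 380 and 397 CPM against 265, 324 and 258 CPM (0.51 ± 0.09, adjusted p = 7.47e-05). Neither overlapped. Birc5, also known as survivin, was the mitosis gene that was lower, at 44.9, 45.4 and 36.8 CPM against 55.1, 59.2 and 49.2 CPM (-0.36 ± 0.11, adjusted p = 0.0124). Gmnn was at 14, 14.1 and 12.3 CPM against 19.3, 21.9 and 18.7 CPM (-0.57 ± 0.16, adjusted p = 0.00744) and Fen1 differed by -0.56 ± 0.19 (adjusted p = 0.0256). Pola1 was the replication gene that was higher, at 131, 120 and 106 CPM against 91.7, 94.6 and 104 CPM (0.30 ± 0.09, adjusted p = 0.015). The 3 Control libraries were outside the wild-type range for Gmnn, Birc5 and Pola1. The counts moved when libraries were left out: 3 replication and 4 mitosis genes were called without wild-type library 1, 4 and 4 without Control library 3, and 13 replication genes, 3 higher and 10 lower, without the 4 libraries that stand apart. Of 32 other replication genes 2 were higher and 4 lower, with a median of 0.04. Of 32 other mitosis genes 13 were higher and 3 lower, the former including Spc25 (1.11) and Foxm1 (0.72), a transcription factor of mitotic genes. Markers of epithelium (5 of 8) and of muscle (6 of 7) were higher in Control, with sums of 11.7 to 16.1 against 6.52 to 9.16 CPM and of 5.47 to 8.49 against 1.33 to 2.45 CPM, and the mitochondrial share was 19.6% to 20.05% against 15.4% to 18.0%. The part of these was not tested. Control enters both PA2 comparisons, so their values are not independent.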

How the data were processed

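Total RNA of sorted cranial neural crest cells was sequenced without strand information as 50-base single-end reads, per the labels' protocols, and base calls were converted with bcl2fastq 2.17, per the submitters' processing notes. The values used are the raw read counts per gene on GRCm38 that the authors deposited. The labels and headers name no aligner, counter or gene annotation. The table repeats 22 column names, each with identical values, and each was read once.

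Counts were tested with edgeR 4.0.16 in R 4.3.3: TMM scaling, filterByExpr by group (minimum count 10, minimum total 15), 20560 genes tested, a quasi-likelihood fit of all 47 libraries with 1 mean per group and 31 residual degrees of freedom, and Benjamini-Hochberg adjusted p over all genes tested, with a call under 0.05. The standard error is the log2 change divided by the square root of F. CPM are counts per 1000000 of the TMM-scaled total, and list levels used a pseudocount of 0.5. Depth was 18.8 to 49.8 M counts a library. The tests were checked on simulated data. Alternatives were DESeq2 1.42.0, limma-voom with limma 3.58.1, no TMM scaling, no filter, mitochondrial genes left out, only the groups compared, a replicate block and each library left out in turn. Leaving out the 4 libraries that stand apart was added after seeing the data.

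The 44 genes and all lists were chosen with earlier results of these data known. Named with full values were up to 4 called genes of the largest change per list and comparison, up to 2 called against the majority, up to 2 per direction in subpopulations and wider lists, and the D-type cyclins throughout. The genes marked by the interaction test, and those named as not called, were chosen after their values were seen. Exon overlaps were counted in GENCODE vM21 annotation of GRCm38.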

Additional observations from a re-analysis of the deposited data

Results flagged for a closer look

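The change from E10.5 to E11.5 differed between the 4 wild-type subpopulations for 6 genes by an interaction F test (edgeR quasi-likelihood, Benjamini-Hochberg adjusted over 20560 genes), 6 of 44 against 15.6% of all genes. Ccnd1 had an adjusted p of 4.11e-06, Ccnd2 of 0.00358, Pola1 of 0.00502, Gins2 of 0.00889, Ccnb1 of 0.0174 and Ccna2 of 0.0184. Ccnd1 fell in FNP and Mx, at log2 changes of -0.60 and -0.82, and rose in PA2, at 0.60. Ccna2 and Ccnb1 fell in FNP, at -0.52 and -0.34, and Gins2 fell in Mx, Md and PA2, at -0.37, -0.47 and -0.45.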

How the results depend on the processing

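The counts of replication and mitosis genes called between stages kept close to their values: 15 to 17 and 9 to 11 for E10.5 against E8.5 and 18 to 19 and 9 for E11.5 against E10.5, over each library left out in turn. Without TMM scaling, 3 G1 to S control genes were called for E11.5 against E10.5, 5 replication and 3 mitosis genes for FNP and no mitosis gene for Mx at E10.5, and 1 replication gene for FNP, none for PA2 and 1 mitosis gene for Md at E11.5. With only the groups compared in the fit, FNP at E10.5 had 6 replication genes, Mx 2 mitosis genes, PA2 1 replication gene, Mx at E11.5 1 replication gene, and HoxA2OE 8 replication and 7 mitosis genes. Limma-voom called 2 mitosis genes for Mx at E10.5 and DESeq2 1 replication gene for PA2. With no filter Ezh2cKO had 7 replication, 1 G1 to S control and 1 mitosis gene, and PA2 at E11.5 no replication gene, against 1 with mitochondrial genes left out. Without the 4 libraries that stand apart, replication counts were 1 for Md at E10.5, 3 for Mx and 8 for PA2 at E11.5 and 13 for Control, and mitosis counts 2 for Mx at E10.5 and 1 each for FNP, Mx and Md at E11.5. Leaving out 1 library in turn gave 3 to 6 mitosis genes for FNP and 0 to 1 for Mx at E10.5, 0 to 3 replication and 0 to 1 mitosis genes for FNP, 0 to 1 replication genes for Md and 1 to 4 for PA2 at E11.5, 8 to 15 replication, 1 to 3 G1 to S control and 2 to 6 mitosis genes for Ezh2cKO, and 3 to 7 and 4 to 7 for Control. Among the genes named with their alternatives, directions turned for D-type cyclins that were not called: Ccnd2 in HoxA2OE (0.0702 without the 4 libraries, -0.0946 to 0.0704 over libraries left out), Ccnd2 and Ccnd3 in Hoxa2TempMut (-0.0464 and -0.0215 without TMM, -0.00784 to 0.0587 and -0.00263 to 0.104 over libraries) and Ccnd3 at E10.5 against E8.5 (-0.459 to 0.108). In windows of 150 bases before the start, 5 replication and no G1 to S control promoters held an E2F motif, against 1.44% of all promoters. A CHR motif lay in 5 mitosis promoters, against 11.2% of all promoters. In HoxA2OE scaling by total counts moved the list medians to -0.48 for replication and -0.08 for mitosis, from 0.12 and 0.56. The cause of these shifts was not tested. Same-numbered libraries of compared groups correlated at -0.200 to 0.290 in their deviations from the group mean, over 0.1 in every pair only for E10.5 FNP with E8.5. In such small groups the deviations are tied to each other, so these values cannot tell whether the replicate numbers pair the samples. With a replicate block, Mx at E10.5 had 2 mitosis genes and Top2a in Ezh2cKO was not called (adjusted p = 0.0504).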
